A study of Drosophila melanogaster with 6 samples.

Results

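The subject is a set of 150 probe sets, of 134 genes, that read higher on the arrays numbered 1 than on the arrays numbered 3 in wing imaginal discs of Drosophila melanogaster. RNA of wing discs from larvae of the last instar was measured on 6 Affymetrix arrays. On 3 of them (DN1, DN2 and DN3) the discs carried a dominant negative, signal-blocking form of the epidermal growth factor receptor, and on 3 (ACT1, ACT2 and ACT3) an activated form called EGFR-TOP. Both transgenes were driven by 71B-Gal4, so all discs carried that driver, and discs with neither transgene were not analysed here. The animals were kept at 25 °C, and the labels give neither strain nor age within the instar. The labels do not say that replicates came from separate animals, and p-values below therefore reflect the spread of these arrays, some or all of which may be technical.

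The members were chosen by their values. Of the 14010 probe sets in the table, 12443 had a single gene symbol and were not array controls. Symbols that begin with ImpE, ImpL, Hr, Eip, Hsp, Cpr, Lcp, Rp or mRp, 225 probe sets of 217 genes, were left out, which left 12218. For each, DN1 minus DN3 and ACT1 minus ACT3 were taken, and the score was the smaller of these log2 differences. The members are the 150 highest scores. DN2 and ACT2 took no part in the choice. A replicate number gives no order in time, so the set is described by array and not as a course.

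In the last larval instar the disc epithelium grows, is patterned and, near the end, is exposed to rising titres of the steroid hormone ecdysone. Ecdysone switches on a first set of genes that includes the transcription factor gene br (broad), and these act on later sets, so wing disc transcripts change with the age of the larva. Large regulatory genes such as br have several promoters and isoforms, which probe sets at different places can read differently.

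The discs carried wing disc transcripts on every array. The selector gene vg and the patterning genes nub, ap and salm, at the brightest probe set of each, read between 8.31 and 10.77, while the 4 yeast control probe sets, whose transcripts the fly lacks, averaged 5.54 to 5.96 per array. Array medians over all probe sets lay close to each other, and Pearson's r between arrays, across probe sets, ran from 0.962 to 0.991. DN1 with ACT1 and DN3 with ACT3, pairs that share a number and not a transgene, both had the highest value. At 1 of 2 probe sets, Egfr itself read 8.50, 9.33 and 9.09 in DN and 10.40, 10.26 and 10.82 in ACT, without overlap. The other read 8.66, 10.03 and 10.11 in DN and 8.50, 8.79 and 9.75 in ACT, and whether either reads the transgenes is not known here. Precision is limited by the 3 arrays per group.

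Scores of the members ran from 0.64 to 2.46, with a median of 0.84. The median log2 difference was 0.98 between DN1 and DN3 and 0.99 between ACT1 and ACT3, and ACT had the wider difference in 74 of the 150. Of the members, 54 had a score of at least 1, a 2-fold difference in both groups, and 4 a score of at least 2. These differences chose the members and are given without a test. Over all 13966 probe sets tested, 44.1% were higher in number 1 than in number 3 in both groups, 0.48% by at least 1, and 31.1% were lower in both. Just inside the limit were Tet (0.641), cmpy (0.640), CG34377 (0.639) and mura (0.637). Just outside were Tomosyn (0.636), hts (0.636), Paip2 (0.635) and CG10654 (0.630), so the limit does not mark a gap.

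The member median read 9.34, 9.02 and 8.18 on DN1, DN2 and DN3, and 9.48, 9.14 and 8.33 on ACT1, ACT2 and ACT3. On both arrays numbered 2, which the choice did not use, it thus lay between the other 2 arrays of the group and nearer to the array numbered 1. The median over all probe sets with 1 symbol stayed between 7.99 and 8.05. Members covered nearly the whole range of the arrays, from 5.30 on DN3 to 14.60 on ACT2. Of the members, 3 had a mean over the arrays below the highest yeast control value on any array (6.17), so their values lie near background.

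**Figure D1:**
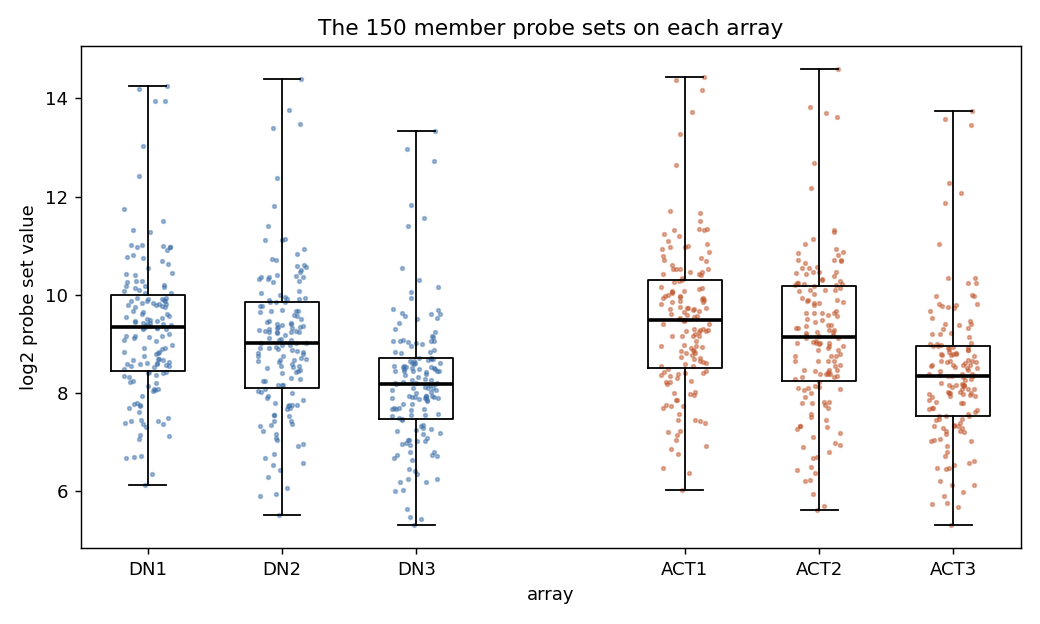
Each point is 1 of the 150 member probe sets, by array (x axis) and log2 probe set value (y axis), with DN arrays in blue and ACT arrays in orange. Boxes span the quartiles with the median as a black line, and whiskers reach the lowest and highest member. The medians of arrays 2 (9.02 and 9.14) lie nearer to those of arrays 1 than to those of arrays 3.

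The 15 members of highest score held 4 genes of transcription and chromatin (spen, sov, lola and Smr). CG2926 led with values of 10.99, 10.58 and 8.52 on DN1, DN2 and DN3, and 11.50, 11.27 and 8.92 on ACT1, ACT2 and ACT3. The gene aqz followed with 11.50, 10.84 and 8.70 against 11.66, 11.31 and 9.32. In both genes the arrays numbered 3 stood more than 1 log2 unit below the other 4, while arrays 1 and 2 lay within 0.7 of each other in each group.

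In the transcriptional regulators the arrays numbered 3 were low as well. The gene spen, which encodes a large nuclear RNA-binding repressor protein, read 10.98, 10.72 and 8.53 in DN and 11.32, 10.54 and 9.31 in ACT. The zinc finger gene sov, needed for heterochromatin silencing, read 10.18, 9.64 and 8.20 in DN and 10.43, 10.24 and 7.92 in ACT. The BTB zinc finger gene lola, known for its many isoforms, read 9.65, 9.34 and 7.78 in DN and 9.95, 9.44 and 8.001 in ACT. In all 3 genes, both arrays numbered 3 were the lowest of the 6.

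The corepressor gene Smr was a member through 2 probe sets. One read 10.42, 9.76 and 8.55 in DN and 10.79, 10.23 and 8.55 in ACT. The other read 9.33, 9.24 and 7.55 in DN and 9.52, 9.63 and 8.02 in ACT, so ACT2 was the highest array there. The trithorax gene trx, a histone methyltransferase gene that keeps homeotic genes active, was highest on DN2: it read 9.35, 9.86 and 7.87 in DN and 9.74, 9.47 and 8.15 in ACT.

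Of the first 15, 4 more genes had an assigned role. The gene hep, which encodes the kinase that phosphorylates JNK, read 8.98, 9.02 and 7.18 in DN and 9.40, 9.84 and 7.66 in ACT, so that both arrays numbered 2 were the highest of their group. The gene pAbp, which encodes the poly(A)-binding protein of messenger RNA, read 13.95, 13.77 and 11.56 in DN and 13.72, 13.71 and 12.07 in ACT. Dys, the dystrophin gene, read 9.76, 9.29 and 7.78 in DN and 9.84, 9.18 and 8.19 in ACT. The axon guidance gene Sema2b read 9.60, 9.51 and 8.07 in DN and 9.90, 9.12 and 8.34 in ACT. The remaining genes of the first 15 were lncRNA:CR32218, drn, SKIP, CG10077 and east, with scores from 1.57 to 2.09.

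**Figure D2:**
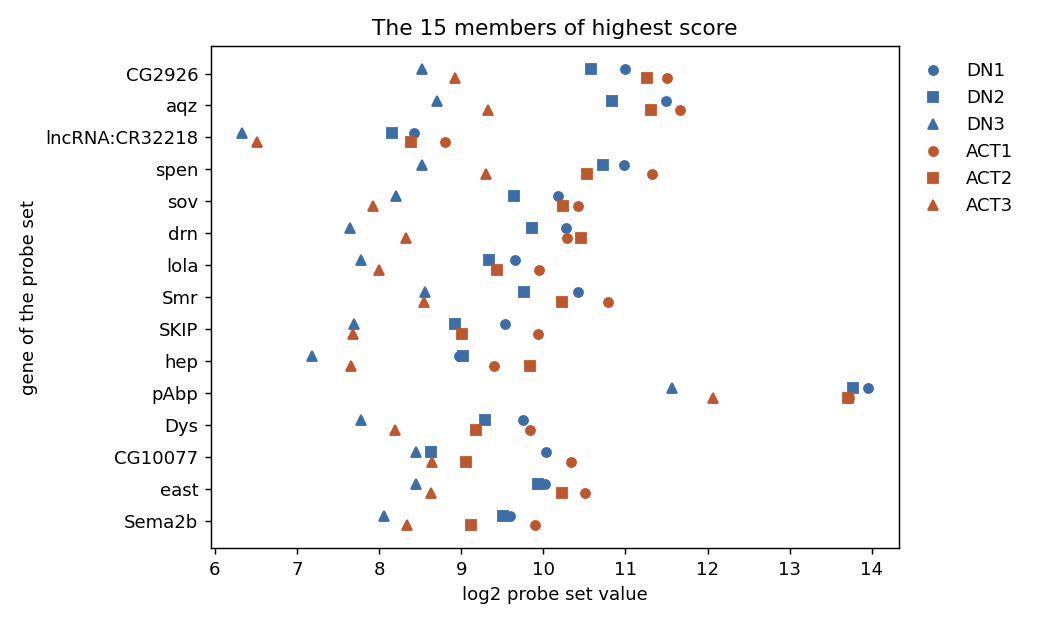
Log2 probe set values (x axis) of the 15 members of highest score (y axis), with DN arrays in blue, ACT arrays in orange, and circles, squares and triangles for arrays 1, 2 and 3. Triangles are lowest within each group in every gene shown, and in CG10077 alone among these do both squares lie nearer to the triangles than to the circles.

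By role, assigned by hand from textbook knowledge after the values were seen, 35 of the 134 genes (41 probe sets) act in transcription or chromatin. Among them are the CREB-binding protein gene nej, the cell cycle transcription factor gene E2f1, the Notch coactivator gene mam, the histone demethylase gene Kdm5 and the chromodomain remodeller gene kis. A further 14 genes (20 probe sets) act in adhesion, axon guidance or synapses, such as the adhesion gene ed, and 13 in signalling, such as the insulin receptor gene InR and the Notch ligand gene Delta. RNA binding or translation took 11 genes, metabolism or transport 8, and 53 were not assigned. The median score was 1.06 for transcription and chromatin, 1.02 for metabolism and transport, 0.91 for RNA binding, 0.84 for adhesion, 0.81 for signalling and 0.74 for the genes not assigned. No count of such roles over all genes was available, so none of these shares can be read as an excess.

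Few members belonged to lists of the disc's basic pathways, as few genes of the array do: 134 of all 10844 genes had a member. Of 15 pathway lists, 5 held a member's gene: cell cycle and DNA replication 1 of 33 measured genes (E2f1), translation factors 1 of 14 (pAbp), chromatin proteins 1 of 22 (trx), wing disc patterning 1 of 33 (Delta), and ecdysone signalling without the left-out symbols 2 of 25 (br and Blimp-1). The lists of ribosome biogenesis, oxidative phosphorylation, proteasome, glycolysis and RNA splicing held none. The 10844 genes include those left out by symbol. A listed gene with such a symbol, as any that begins with Rp, was counted but could not be a member. E2f1 read 10.69, 10.37 and 9.61 in DN and 11.33, 10.71 and 10.25 in ACT. Delta read 9.44, 9.47 and 8.48 in DN and 10.07, 9.51 and 8.65 in ACT. In both genes the array numbered 3 was the lowest of its group. Most genes of their lists went the other way, at the brightest probe set of each gene. Of the cell cycle list, 25 of 33 genes were lower in number 1 in both groups and 4 higher. Of wing disc patterning, 21 of 33 were lower and 7 higher, while over all genes 32.2% were lower and 42.8% higher.

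The members tied to larval stage were br and Blimp-1. The member probe set of br read 10.20, 10.27 and 8.69 in DN and 10.75, 10.94 and 8.57 in ACT. Blimp-1, an ecdysone-inducible repressor gene that times later steps of metamorphosis, read 10.78, 10.36 and 9.29 in DN and 11.23, 10.71 and 9.52 in ACT. Both genes were lowest on the arrays numbered 3. Of the symbols left out, 3 had scores that would have entered: the ecdysone-inducible nuclear receptor gene Hr4 (2.43), the ecdysone-inducible gene ImpE1 (2.25) and the insulin-binding protein gene ImpL2 (0.75).

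The brightest probe set of br, however, read 10.73, 10.89 and 10.59 in DN and 10.44, 9.89 and 10.52 in ACT, with no common difference between numbers 1 and 3. The remaining one read 8.77, 9.49 and 7.63 in DN and 8.85, 9.36 and 9.31 in ACT, so DN3 was low there and ACT3 was not. Over a list of ecdysone signalling and prepupal genes that lacks every Hr, Eip, ImpE and ImpL symbol, Hr4 and ImpE1 included, and so cannot stand for ecdysone-inducible genes as a whole, at the brightest probe set of each gene, 8 of 25 genes were higher in number 1 in both groups and 12 were lower, with median differences of -0.01 in DN and -0.09 in ACT. Over all 10844 genes, 42.8% were higher and 32.2% lower. The age of the larvae on each array is not in the labels, so developmental age and array number cannot be told apart here.

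Marker lists of other tissues differed in direction. Markers of salivary gland (7 of 11), fat body (6 of 7) and trachea (6 of 7) were mostly lower on the arrays numbered 1 in both groups. Markers of the eye-antennal disc (7 of 10) and of leg and haltere discs (5 of 6) were mostly higher. In glia 4 of 7 were higher and 2 lower at the brightest probe set. With probe sets averaged by gene, 3 glia markers were higher and 3 lower. The summed linear level of the glia markers, on the log2 scale, was 11.24, 11.80 and 11.76 in DN and 11.26, 11.24 and 11.74 in ACT. The direction in glia thus depended on how the probe sets were combined. In larval muscle 6 of 16 were higher and 6 lower, in hemocytes 3 of 12 higher and 5 lower, and in adepithelial myoblasts 2 of 5 higher and 1 lower. None of the 11 measured salivary gland markers was a member, and their summed linear level, on the log2 scale, was 12.24, 13.75 and 13.82 in DN and 11.92, 12.23 and 13.47 in ACT. Sgs7, a glue protein gene of the late larval salivary gland, read 10.79, 12.93 and 13.18 in DN and 10.30, 10.87 and 12.79 in ACT. The 7 fat body markers summed to 12.28, 12.62 and 13.22 in DN and 11.45, 12.29 and 12.81 in ACT. The salivary gland and fat body sums were thus highest, within each group, on the array where the members were lowest. A linear sum rests mostly on its brightest genes, such as Sgs7. DN2 stood with DN3 in the salivary gland sum, while the members' median on DN2 was nearer to DN1. The order was not particular to these tissues. Sums of the oxidative phosphorylation, chromatin protein and cell cycle lists were also highest on DN3 and ACT3, while that of ribosome biogenesis was highest on DN2 in DN.

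Markers of neurons were higher in number 1 in both groups in 8 of 9 genes and lower in 0, with median differences of 0.34 in DN and 0.44 in ACT, and none was a member. Their summed level was 10.96, 10.69 and 10.66 in DN and 11.01, 10.88 and 10.58 in ACT. Among the 11 marker lists, 1 held a member's gene: that of the larval gut, through the lysozyme gene LysP (score 0.65), while 11 of its 17 genes were lower in number 1 in both groups. In tissue samples, fewer cells of a type and less RNA per cell cannot be told apart, and the part of other cell types in the members' values was not tested.

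The arrays numbered 2 bear on the set without having chosen it. DN2 lay between DN1 and DN3 for 118 of the 150 members, above both for 26 and below both for 6. ACT2 lay between ACT1 and ACT3 for 115, above both for 29 and below both for 6. Over all 13966 probe sets, by contrast, DN2 was above both others in 24.0% and below both in 37.0%, and ACT2 in 36.0% and 31.0%. A wide gap between arrays 1 and 3, which the choice fixes, leaves more room for array 2 to lie between them, so these shares cannot be set against each other as a test.

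The distance from the midpoint of arrays 1 and 3 does not depend on that gap in the same way. For the members it was 0.24 at the median in DN, with DN2 above the midpoint in 109, or 72.7%. In ACT it was 0.18, with ACT2 above the midpoint in 104, or 69.3%. Over all probe sets tested the medians were -0.04 and 0.02, with 42.7% and 52.5% above the midpoint. With 1 array numbered 2 in each group these values have no replicate check.

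The members fell into unequal classes by this measure. Array 2 was nearer to array 1 in both groups for 87 members, nearer to array 3 in both for 24, and split between the groups for 39. The 87 had a median score of 1.01 and held 29 of the 41 transcription and chromatin probe sets. In them the median read 9.54, 9.40 and 8.32 in DN and 9.75, 9.63 and 8.51 in ACT. The 24 had a median score of 0.71 and read 8.57, 7.82 and 7.91 in DN and 8.80, 8.11 and 7.98 in ACT. There the arrays numbered 1 stood above the other 4, which within each group is fixed by how the class was defined.

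The clearest of the 24, named after its values were seen, was Pepck1, the gene of a rate-controlling enzyme of gluconeogenesis. It read 11.75, 9.27 and 9.70 in DN and 10.93, 9.31 and 9.66 in ACT, with arrays 2 at the bottom of each group. InR, whose product carries the insulin signal, read 8.52, 7.76 and 7.34 in DN and 8.91, 8.38 and 8.03 in ACT. Among the 15 highest scores, CG10077 was the only one in this class, and it read 10.03, 8.63 and 8.45 in DN and 10.34, 9.06 and 8.64 in ACT.

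**Figure D3:**
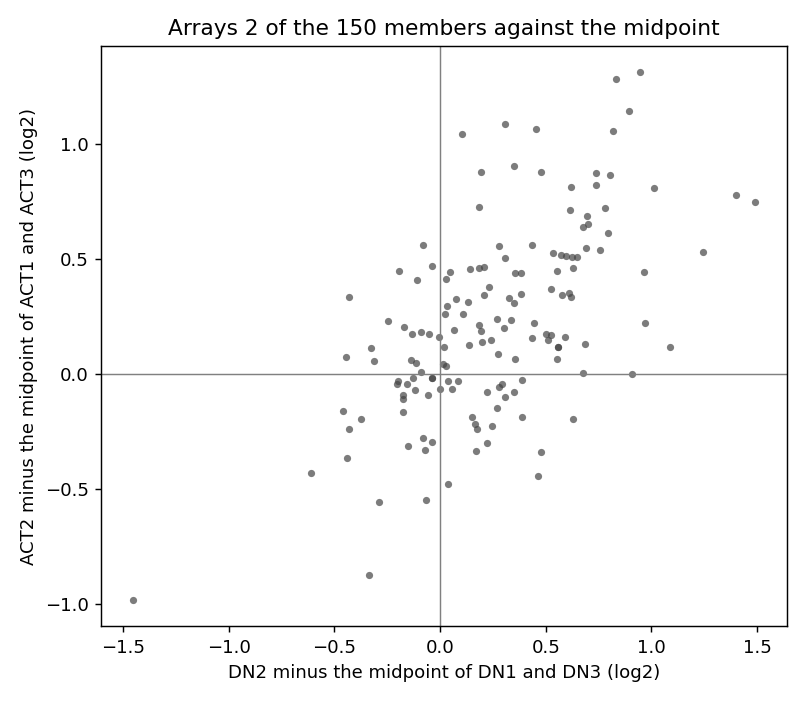
Each point is 1 member, by DN2 minus the midpoint of DN1 and DN3 (x axis, log2) and ACT2 minus the midpoint of ACT1 and ACT3 (y axis, log2). The upper right part, where array 2 is nearer to array 1 in both groups, holds 87 of the 150 points, and the lower left holds 24.

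The opposite set gave another order on ACT2, a description with no test. The 150 eligible probe sets found by turning the rule around, higher in number 3, had medians of 7.91, 8.78 and 9.11 in DN and 7.96, 7.92 and 9.19 in ACT. There DN2 was above the midpoint in 118 of 150 and ACT2 in 8, whereas in the members it was 109 and 104. For most members ACT2 thus lay nearer to ACT1 and DN2 nearer to DN1. For most of the opposite set ACT2 lay nearer to ACT1, while DN2 lay nearer to DN3.

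Many members belong to genes with further probe sets, which show how far a value stands for the gene. The 134 genes had 106 other probe sets with their symbol alone, in 68 genes. Of these, 65 (61.3%) were higher in number 1 in both groups, 21 (19.8%) were lower in both and 20 were mixed. Over all 13966 probe sets tested, 44.1% were higher in both groups and 31.1% lower, so much of that agreement is the general share. For the 106 other probe sets, differences were also small. Their median difference was 0.22 in DN and 0.20 in ACT, far below the members' own. A lower value is built in, since the highest scoring probe sets of each gene had been taken out.

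For some genes the probe sets disagreed outright. The zinc finger gene jim was a member through a probe set that read 9.76, 9.57 and 8.70 in DN and 10.12, 9.63 and 8.67 in ACT. Its other probe set read 9.46, 10.55 and 10.84 in DN and 9.47, 9.58 and 10.47 in ACT, more than 2-fold lower on the arrays numbered 1 than on those numbered 3. MED26, a subunit gene of the Mediator complex, read 9.94, 10.46 and 8.17 in DN and 9.85, 9.90 and 8.38 in ACT at the member probe set. At the other it read 8.58, 9.61 and 9.13 in DN and 8.26, 8.45 and 9.18 in ACT.

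The second probe set of pAbp hardly differed between arrays, at 12.76, 12.74 and 12.70 in DN and 12.70, 12.43 and 12.61 in ACT, beside a member that ranged from 11.56 to 13.95. At least 1 probe set was lower in number 1 in both groups for 19 of the member genes, among them HIPP1, CNBP, kis, sov and lola, and 8 such probe sets were lower by at least 0.5 in both groups. Where each probe set lies along its transcripts is not known here, so isoforms, ends of transcripts and probe behaviour cannot be told apart. In contrast, 14 genes had more than 1 member, with SKIP and gukh represented by 3 each.

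Members came from long genes. The RefSeq gene table of assembly Release 6 gave the span from start to end, introns included, for 133 of the 134 genes. The median span was 14426 bases, with quartiles of 7386 and 40089, against 2424 bases over all 10583 eligible genes with a span. A span of at least 10 kb was found in 88 member genes (66.2%) and in 15.5% of all eligible genes. The opposite set lay between, with a median of 5848 bases and 34.2% of at least 10 kb. Member genes also had more RefSeq transcripts, a median of 4 against 2.

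The difference in span was also seen at matched signal. A mean log2 value between 8.03 and 9.61 was the middle range of the members. Within it, member genes had a median span of 16182 bases. The genes of the other probe sets had a median of 2887, some of them being member genes with a further probe set. The share of eligible probe sets that are members was 0.138% for genes below 1 kb, 0.403% from 2 to 5 kb, 3.42% from 10 to 20 kb and 6.29% from 50 kb. Across all eligible probe sets, the median difference between numbers 1 and 3 was also highest in the longest genes, but far below that of the members. It was 0.08 in DN and 0.10 in ACT below 1 kb, and -0.03 and -0.01 from 2 to 5 kb. From 20 to 50 kb it was 0.14 and 0.16, and from 50 kb 0.19 and 0.23. Long genes therefore held most of the members, but most long genes were not members. The longest span was that of Ten-a (291517 bases), a teneurin gene of axon guidance and synapses, and among members named by rule the longest were those of SKIP (162297 bases), Dys (136204), Tet (92952) and br (89738). These spans were set beside the values after members were known, and no test was made.

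**Figure D4:**
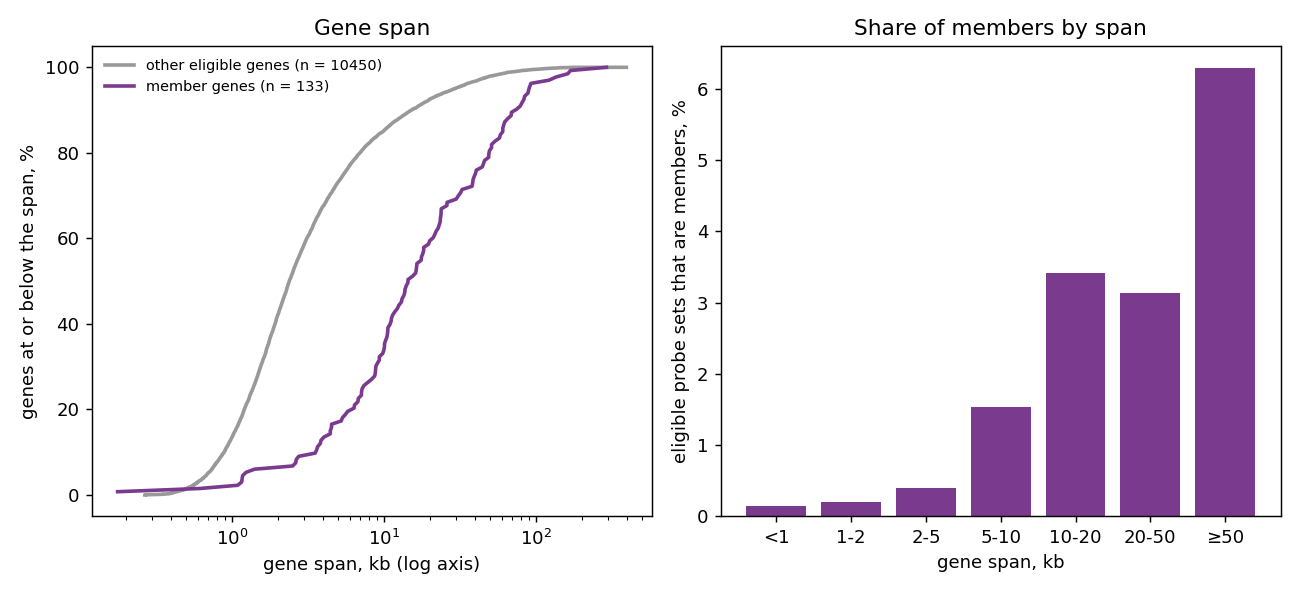
Left, the cumulative percentage of genes (y axis) at or below a RefSeq gene span in kb (x axis, log scale) for 133 member genes and 10450 other eligible genes. Right, the percentage of eligible probe sets that are members (bars) by span class, from 0.138% below 1 kb to 6.29% from 50 kb.

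Some members can pick up more than 1 transcript. In Affymetrix names, the endings s and f mark probe sets whose probes match several transcripts or a sequence family, and r and i mark sets chosen with relaxed rules. The ending s was carried by 10 members (6.67%, against 0.958% of the eligible probe sets) and f by 5 (3.33%, against 0.278%). CG2926 and the sov probe set given above are among the former. The 5 with f were mam, Tango8, rut, dpr3 and CG34347. That of rut, an adenylyl cyclase gene, read 14.18, 13.40 and 12.98 in DN and 14.38, 13.82 and 13.59 in ACT. Such values may not stand for the named gene alone. Restricted to the 130 members without such an ending, the median span was 16476 bases.

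The array controls moved with the arrays as well. The 3′ control probe set of 18S ribosomal RNA, which is not polyadenylated, read 12.80, 10.13 and 6.81 in DN and 11.97, 6.93 and 6.85 in ACT. The 3′ minus 5′ log2 difference averaged over the controls for actin, GAPDH and eIF-4a, which widens where RNA or cDNA is shorter, was 0.83, 0.76 and 1.69 in DN and 0.97, 1.19 and 1.19 in ACT. In DN, the array with the lowest members, DN3, had the widest 3′ to 5′ difference and the lowest 18S value. In ACT, ACT2 and ACT3 had nearly the same 18S value and the same mean 3′ to 5′ difference, with member medians of 9.14 and 8.33. The controls behind that mean differed in direction: from ACT2 to ACT3, GAPDH read 1.25 and 1.56, actin 0.87 and 0.96, and eIF-4a 1.45 and 1.06. The part of RNA integrity or of ribosomal RNA in the members' values was not tested.

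**Figure D5:**
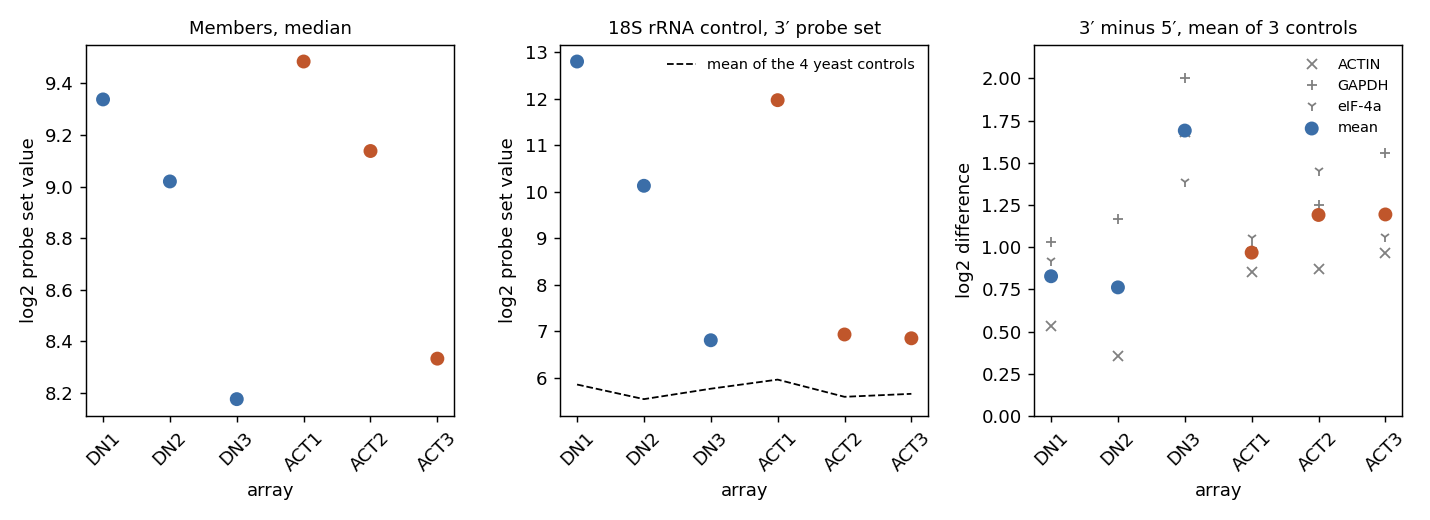
By array (x axis), from left to right: the median log2 value of the 150 members, the log2 value of the 3′ 18S rRNA control probe set with the mean of the 4 yeast controls as a dashed line, and the 3′ minus 5′ log2 difference of the actin, GAPDH and eIF-4a controls (grey) with their mean (coloured). DN arrays are blue and ACT arrays orange. ACT2 and ACT3 have equal means in the right panel (1.19), from controls that differ in direction, and member medians of 9.14 and 8.33 in the left.

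Probe sets were also chosen by 1 group and read in the other, a description with no test, since it uses the same 4 arrays as the choice of members. The 150 eligible probe sets of widest DN1 minus DN3 had a median ACT1 minus ACT3 of 0.82, above 0 in 147, where all eligible probe sets had a median of 0.06 and 57.7% above 0. The 150 of widest ACT1 minus ACT3 had a median DN1 minus DN3 of 0.89, above 0 in 148, against a median of 0.05 and 55.9% above 0. Of these sets, 95 and 105 probe sets were themselves members. The labels name no batch that goes with the number, and each difference comes from 1 pair of arrays in each group.

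Between the transgenes, the question of the series, no member passed. With limma over all 13966 probe sets, 0 were called at a Benjamini-Hochberg adjusted p under 0.05 (0%), and so were 0 of the 150 members. An unadjusted p below 0.05 was reached by 308 probe sets (2.21%), of which 128 (0.917%) were higher and 180 (1.29%) lower in activated discs, and by 0 members. The groups overlapped in all members, while 3.39% of all probe sets were higher in activated discs without overlap and 2.84% lower. Members were chosen for a wide spread within both groups, which widens their standard errors and makes overlap likely, so a count of 0 does not show that Egfr activity leaves them unchanged.

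The members' median log2 difference, activated minus dominant negative, was 0.14, and 116 of 150 were higher in activated discs (77.3%, against 54.6% of all probe sets tested, whose median was 0.02). Number by number, the median of ACT minus DN was 0.13 for arrays 1, 0.12 for arrays 2 and 0.16 for arrays 3, with 109, 100 and 105 members above 0. Over all probe sets these medians were 0.00, 0.06 and -0.02. Leaving out an array numbered 1 or 3 leaves unequal numbers of arrays 1 and 3, between which the members were chosen to differ. The median was then -0.15 without DN3, -0.09 without ACT1, 0.36 without DN1 and 0.44 without ACT3. Without an array numbered 2 the arrays 1 and 3 stay balanced, and the median was 0.24 without DN2 and 0.07 without ACT2.

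Of the members, kek1 had the smallest p. It encodes a transmembrane inhibitor of Egfr and read 9.09, 8.80 and 7.90 in DN and 9.81, 10.19 and 8.39 in ACT, a log2 difference of 0.87 (SE 0.45, limma adjusted p = 0.9999). At each number ACT was higher than DN, by 1.39 for arrays 2, yet ACT3 was below DN1 and DN2. InR differed by 0.57 (SE 0.31), E2f1 by 0.54 (SE 0.32) and Mrtf, a coactivator gene of serum response factor, by 0.48 (SE 0.29), all higher in activated discs and none past the threshold. Pdcd4, whose product binds a translation initiation factor in mammals, differed by -0.55 (SE 0.33) and was the 1 gene among the 6 of smallest p that was lower in activated discs. The remaining one, CG15561, differed by 0.43 (SE 0.26).

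The arrays numbered 2 separated the transgenes most in a few members. ACT2 minus DN2 had a median of 0.12 and ran from -0.91 to 1.39. After kek1, the highest were Helz (1.15), an RNA helicase gene, hep (0.82), cic (0.81), the gene of the Capicua repressor that Egfr signalling inactivates, and Pits (0.78). The cic probe set read 10.26, 10.03 and 8.84 in DN and 10.71, 10.84 and 9.21 in ACT. The lowest were Smox (-0.91), the Smad gene of the activin branch, Pdcd4 (-0.83), CG8066 (-0.66), the receptor tyrosine kinase gene drl (-0.65) and the mRNA decapping gene Edc3 (-0.59). Each is a difference between 2 arrays, with no replicate check.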

How the data were processed

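The values used are those the authors deposited: 1 log2 value per probe set and array, made with GCRMA per the submitters' processing notes. For that step the version and options were not given in the labels. Values between 4.72 and 15.08 showed the scale to be log2. Biotin-labelled RNA was made from 6 µg of total RNA, per the labels' protocols. Gene symbols came from the platform's probe table, and 12394 single-symbol probe sets were matched by Entrez identifier to RefSeq (Release 6), with 0 symbols changed.

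Activated was set against dominant negative over 13966 probe sets in limma 3.58.1 (R 4.3.3), two-sided and with no covariate, with Benjamini-Hochberg adjustment and a call at 0.05. The step was tested on simulated data. With 3 arrays a group, the smallest exact permutation p is 0.1, so none was run. A gene in a list was represented by its probe set of highest mean. Members and the 26 lists were chosen with earlier results of these data known. The lists hold 15 pathways and 11 sets of cell type markers.

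Genes were named by rule: the 15 highest scores, the 4 on either side of the limit, members in a list (up to 4 each), the 6 of smallest p, and the 5 highest and 5 lowest by ACT2 minus DN2. That gave 37 members. Others were named after their values were seen. Promoter motif shares, which had been planned, were not computed. Plots used matplotlib 3.10.9 under Python 3.11.15.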

Additional observations from a re-analysis of the deposited data

Results flagged for a closer look

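The control probe sets of 18S ribosomal RNA, which enter no comparison, carried signal at least 2 log2 units above the mean of the yeast controls of the same array on DN1, DN2 and ACT1. The 3′ probe set read 12.80 on DN1, 10.13 on DN2 and 11.97 on ACT1. The middle probe set read 11.95, 9.19 and 10.46 on the same arrays. The 5′ probe set passed that limit on DN1 alone, at 9.44. On DN3, ACT2 and ACT3 the 3′ probe set read 6.81, 6.93 and 6.85.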

How the results depend on the processing

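With array weights 1 probe set, not a member, was called between the transgenes in place of 0. The number of called members was 0 under every alternative run. Leaving out 1 array gave a member median of ACT minus DN between -0.15 and 0.44 and 0 called probe sets each time, at unadjusted p counts of 193 to 1043. The main value was 0.14, so it turned sign or more than doubled in some of these, and array weights gave 0.43. All these moves were smaller than the SD of the member median between arrays of a group, 0.60. The choice of members made that SD wide, so it cannot show the median to be stable. The main fit did not pair the arrays by replicate number. Deviations from the group means correlated between the groups at 0.61 for number 1, -0.08 for number 2 and 0.60 for number 3. Arrays 1 and arrays 3 thus deviated together across the groups, and arrays 2 did not. The main fit counts that shared deviation as spread within groups. With a replicate block 0 probe sets and 0 members were called. Probe sets at an unadjusted limma p under 0.05 went from 308 to 774 of 13966. Members went from 0 to 37 of 150, of which 35 were higher in activated discs. The members were chosen for a difference between numbers 1 and 3 in both groups, which the block takes out. Their rise is thus not free of the choice. Array weights gave 1109 probe sets and 16 members at an unadjusted limma p under 0.05, all 16 higher. Without ACT3 there were 22 members and without DN1 there were 8, all higher. Without DN3 there were 2 and without ACT1 2, all lower. Chosen again, the members shared 148 probe sets with the set described after median centring, 132 after quantile normalization, 115 with a mean of at least 8, 125 with the mean of both differences, 147 with no symbol left out and 100 with 1 probe set per gene. The median distance of array 2 from the midpoint stayed between 0.19 and 0.29 in DN and between 0.16 and 0.23 in ACT, and that of ACT2 minus DN2 between 0.06 and 0.16. The median span, an addition made after seeing the data, stayed between 11157 and 16461 bases. Arrays 1 and 3 could not be left out of the choice, which needs them. Scores of named members moved by -0.08 to 0.13 under both scalings.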

Other observations

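Several lists that held no member were mostly lower on the arrays numbered 1 than on those numbered 3, the contrast that chose the members. Of 29 genes of oxidative phosphorylation 22 were lower in both groups and 2 higher, with median log2 differences of -0.18 in DN and -0.24 in ACT. Of 11 glycolysis genes 9 were lower and 0 higher, and of 25 genes of RNA splicing and processing 18 were lower and 3 higher. For the splicing list ACT2 lay below the midpoint of ACT1 and ACT3 by a median of -0.37, and DN2 above that of DN1 and DN3 by 0.16. In the list of chromatin proteins, which held the member gene trx, 14 of 22 were lower and 3 higher. Glutathione S-transferase and cytochrome P450 genes, of detoxification, were higher in 15 of 36 and lower in 7. Over all 10844 genes 42.8% were higher and 32.2% lower.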
